A study of Mus musculus with 6 samples.

Results

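The flavin monooxygenases described here are 4 mouse genes, Fmo1, Fmo2, Fmo4 and Fmo5, read by 7 of the 55681 non-control probes on a two-colour array. A probe was taken where its accession maps in RefSeq to one of these symbols: Fmo5 has 3 probes, Fmo1 has 2, and Fmo2 and Fmo4 have 1 each. The genes are 4 of the 20284 gene symbols that the array's accessions reach. Other genes of the family were not analysed here. The RNA came from livers of male Apoe-deficient mice on the C57BL/6J background, and both diet groups carry the Apoe deficiency. The squalene group (10 mice) received for 11 weeks a purified Western diet with 0.15% cholesterol, 20% refined palm oil and 1% squalene, a dose equivalent to 1 g/kg. The Western group (9 mice) received that diet without squalene. RNA of 2 or 3 mice was pooled, giving 4 squalene pools and 4 Western pools, so the values show pools and not single animals. Arrays paired 1 squalene pool with 1 Western pool each, and 6 arrays on 2 slides covered 4 pool pairs: squalene was labelled with Cy5 in pairs 1 and 4 and with Cy3 in pairs 2 and 3.

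Flavin monooxygenases are enzymes of the endoplasmic reticulum membrane that hold FAD as a cofactor. They take electrons from NADPH, activate molecular oxygen on the flavin and pass 1 oxygen atom to a nitrogen or sulfur atom of a drug, a dietary amine or a sulfur metabolite. Unlike cytochrome P450 enzymes, they need no separate reductase, and textbooks describe them as little induced by foreign compounds. In mouse liver several genes of the family are expressed more in females than in males.

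Between 48.7% and 54.2% of spots in a channel were well above background. All 7 probes were marked well above background in both channels of all 6 arrays, with 0 outlier marks and 0 saturated spots, so every gene passed the filter on dim probes. The brightest probe stood for its gene in the test, and the others are given beside it. Pool levels are normalised log2 intensities, which compare pools for a probe and not one probe with another. The pools of each diet were read in both dyes, and these levels were not centred on a mean per dye. The liver label was borne out by its markers: all 8 listed hepatocyte genes were measured, while 0 of 5 listed genes of lung and kidney epithelium passed the filter. In RNA from whole liver, fewer cells of a type and less RNA per cell cannot be told apart.

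Fmo4, Fmo1 and Fmo2 are neighbours on chromosome 1, in that order among protein-coding genes (places 895, 896 and 897), and Fmo5 lies apart on chromosome 3. RefSeq promoter windows (250 bases before a start site and 50 after it, build GRCm38.p6) were held for 3 of the 4 genes. A window of each is shown so that the letters beside the start sites of the neighbours Fmo2 and Fmo4 and of the distant Fmo5 can be set side by side. Capitals mark the motifs searched on both strands: the nuclear receptor half-sites AGGTCA and AGTTCA, the TATA box TATAAA and the xenobiotic response core GCGTG.
Fmo5, chr3:97628769-97629068, plus strand: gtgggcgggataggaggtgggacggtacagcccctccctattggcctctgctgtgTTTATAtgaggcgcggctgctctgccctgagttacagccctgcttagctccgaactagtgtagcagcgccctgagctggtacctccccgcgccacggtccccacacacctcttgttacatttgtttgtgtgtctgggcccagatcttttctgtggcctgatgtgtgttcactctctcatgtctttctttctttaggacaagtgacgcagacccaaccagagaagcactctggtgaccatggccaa
Fmo2, chr1:162898444-162898743, minus strand: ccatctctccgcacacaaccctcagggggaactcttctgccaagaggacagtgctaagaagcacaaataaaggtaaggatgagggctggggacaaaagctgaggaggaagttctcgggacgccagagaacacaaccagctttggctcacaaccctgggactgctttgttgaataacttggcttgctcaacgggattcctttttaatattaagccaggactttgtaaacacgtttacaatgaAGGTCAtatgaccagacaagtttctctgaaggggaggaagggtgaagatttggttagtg
Fmo4, chr1:162812500-162812799, minus strand: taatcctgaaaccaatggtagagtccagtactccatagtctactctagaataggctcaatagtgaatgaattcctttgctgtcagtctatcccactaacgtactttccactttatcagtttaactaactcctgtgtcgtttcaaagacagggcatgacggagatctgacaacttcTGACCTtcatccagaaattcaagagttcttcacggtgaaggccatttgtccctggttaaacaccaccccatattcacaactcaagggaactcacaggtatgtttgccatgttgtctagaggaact

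The Fmo5 window held a TATA box on its opposite strand, at -195 from the start site, and neither half-site. It was the richest of the 3 in G and C, at 56%, against a median of 52.7% over all windows. The Fmo2 window shown, which belongs to the downstream of its 2 listed start sites, held 1 AGGTCA, at -9. The window of its upstream start, chr1:162898709-162899008, held none of the 4 motifs. The Fmo4 window held 1 AGGTCA on its opposite strand, at -75. Of 32851 windows of this length, 16.3% hold AGGTCA, 14% hold AGTTCA, 13.6% hold TATAAA and 32.4% hold GCGTG. A match is a match of letters in this window and no more.

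The study's comparison is of hepatic transcripts with and without dietary squalene. For the flavin monooxygenases no difference passed the test: all 4 fitted ratios lay between 0.94-fold and 1.07-fold, and the ranges of squalene and Western pools overlapped for every gene. By their brightest probes, Fmo1 and Fmo2 averaged 1.07-fold with squalene, Fmo5 0.98-fold and Fmo4 0.94-fold. The dimmer Fmo5 probes averaged 1.05-fold and 1.07-fold, and the dimmer Fmo1 probe 1.13-fold. For the brightest probes the 95% intervals reached at most 1.23-fold upwards, for Fmo1 and Fmo2, and 0.84-fold downwards, for Fmo4 and Fmo5; the interval of the dimmer Fmo1 probe reached 1.32-fold. A p that misses the threshold does not show equal expression, but these intervals bound the difference that each probe shows in this fit. The fit's dye term takes up any difference between the dye orientations; without it the intervals of the brightest probes ran from 0.91-fold to 1.26-fold for Fmo1, 0.93-fold to 1.23-fold for Fmo2, 0.84-fold to 1.06-fold for Fmo4 and 0.83-fold to 1.16-fold for Fmo5.

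**Figure D1:**
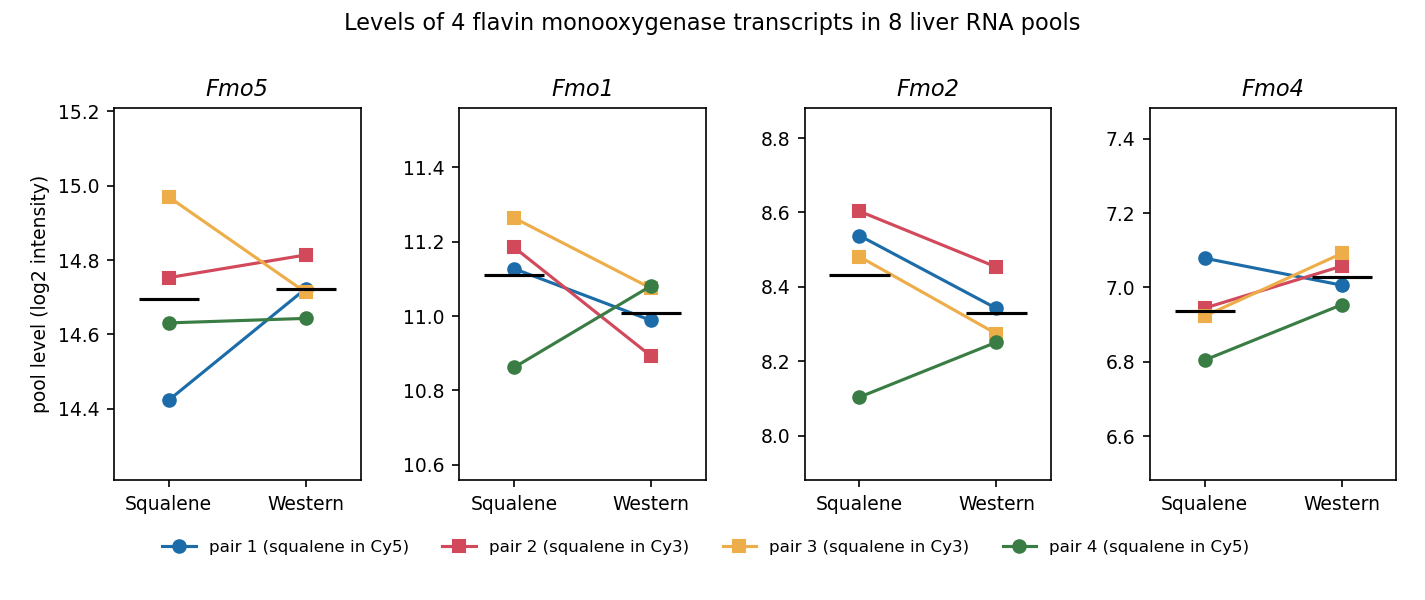
Log2 intensity of the brightest probe of each gene in the squalene pools (left) and the Western pools (right). Lines join the pools of a pair, black bars are means over 4 pools, and each panel spans 1 log2 unit. The squalene pools are spread more widely than the Western pools in all 4 panels, and the ranges overlap in each. The levels are not centred by dye.

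Fmo5 differs from the other enzymes in inserting oxygen beside carbonyl groups, and mice that lack it are known to be lean with low plasma cholesterol. Its brightest probe (A_55_P1959595) read between 380.4 and 979 times the local background. Its log2 intensity was 14.42, 14.75, 14.97 and 14.63 in the squalene pools of pairs 1 to 4, against 14.72, 14.81, 14.71 and 14.64 in the Western pools. The squalene pools held both the highest and the lowest value of the 8, and the Western pools lay between them. The log2 ratios of squalene over Western were -0.30, -0.061, 0.26 and -0.012 in pairs 1 to 4. The fitted log2 ratio was -0.03 ± 0.23 (SD, n = 4; SE 0.09), and limma's Benjamini-Hochberg adjusted p was 0.9999.

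Both other Fmo5 probes had a mean above 0. Probe A_55_P2026340 read -0.28, 0.17, 0.40 and 0.016 in pairs 1 to 4, and probe A_55_P2168722 read -0.095, 0.11, 0.32 and 0.066, all as log2 ratios. Their fitted log2 ratios were 0.08 ± 0.28 and 0.10 ± 0.17 (SD, n = 4). The probes thus gave the mean a different sign, but each of the 3 had its lowest ratio in pair 1 and its highest in pair 3. The mean over the 3 probes was 0.05, and the brightest probe alone turned to 0.04 without pair 1 and to 0.05 without pair 2.

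**Figure D2:**
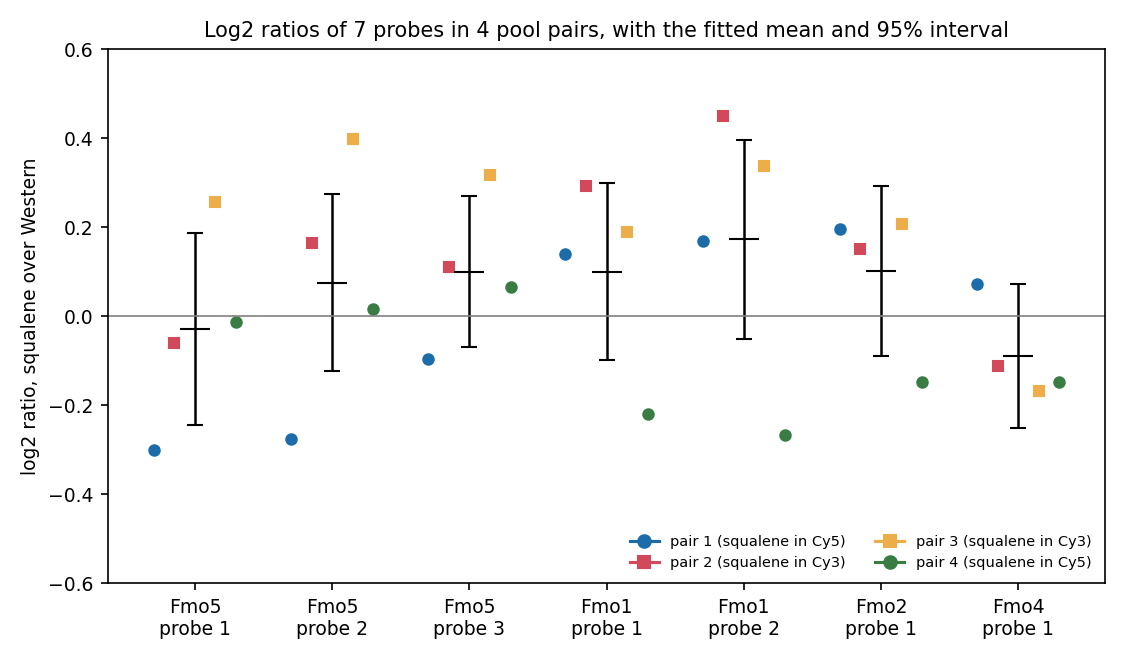
Log2 ratio of squalene over Western for the 7 probes, numbered within a gene by brightness. Coloured points are the 4 pool pairs, the black bar is the fitted mean and the whiskers its 95% interval in limma. All 7 intervals include 0, and probes of one gene place the same pair lowest.

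Fmo1 oxygenates a broad range of amines and sulfides and is known to make taurine from hypotaurine. Its brighter probe (A_52_P508991) had log2 intensities of 11.13, 11.18, 11.26 and 10.86 in the squalene pools, against 10.99, 10.89, 11.07 and 11.08 in the Western pools. In pairs 1, 2 and 3 the squalene pool was the higher of the pair. In pair 4 it was the lowest of all 8 pools, in levels not centred by dye. The log2 ratios were 0.14, 0.29, 0.19 and -0.22, and the fitted value was 0.10 ± 0.22 (SD, n = 4; SE 0.08; limma, Benjamini-Hochberg adjusted p = 0.9999). The dimmer probe (A_55_P2153783) ordered the pairs identically, with log2 ratios of 0.17, 0.45, 0.34 and -0.27 and a fitted value of 0.17 ± 0.32 (SD, n = 4).

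Fmo2 is best known as the main flavin monooxygenase of lung. It had log2 intensities of 8.54, 8.60, 8.48 and 8.10 in the squalene pools, against 8.34, 8.45, 8.27 and 8.25 in the Western pools. Its ratios had the same sign in each pair as those of its neighbour Fmo1. Fmo4, also a neighbour of Fmo1, had the opposite sign in pairs 2 and 3. For Fmo2 the squalene pool was the higher in pairs 1, 2 and 3. In pair 4 it was the lowest of the 8, again in levels not centred by dye. The log2 ratios of 0.20, 0.15, 0.21 and -0.15 gave a fitted value of 0.10 ± 0.17 (SD, n = 4; SE 0.08; limma, Benjamini-Hochberg adjusted p = 0.9999).

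Fmo4 is among the less studied enzymes of the family. Its probe was close to background, at 1.92 to 3.80 times the local background signal, the lowest of the 7 probes. Its log2 intensities were 7.08, 6.94, 6.92 and 6.80 in the squalene pools, against 7.01, 7.06, 7.09 and 6.95 in the Western pools. The squalene pool was the lower in pairs 2, 3 and 4 and the higher in pair 1. The log2 ratios of 0.07, -0.11, -0.17 and -0.15 gave a fitted value of -0.09 ± 0.11 (SD, n = 4; SE 0.06; limma, Benjamini-Hochberg adjusted p = 0.9999). With the scanner software's own processed signals, the value was -0.23, the largest move of the 4 genes under that setting (limma, unadjusted p = 0.026, Benjamini-Hochberg adjusted p = 0.9997).

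At a Benjamini-Hochberg adjusted p of 0.05 limma called 0 of the 4 genes, nor did it call any of the 20658 features tested (0%). At an unadjusted p under 0.05, 0 of the 4 genes passed, against 2.47% of all features (511 features). That is fewer than the 1032.9 features that this level would give if no feature differed. The ratio had 1 sign in all 4 pairs for 0 of the 4 genes and for 6.38% of all features. The levels of squalene and Western pools did not overlap for 0 of the 4 genes and for 0.775% of all features. The median ratio of the 4 genes was 0.04 on the log2 scale, against 0.0029 over all features. An exact sign-flip permutation test over the pool pairs gave two-sided p values of 0.5 for Fmo1, 0.25 for Fmo2, 0.25 for Fmo4 and 0.625 for Fmo5 (n = 4), where 4 pairs cannot give less than 0.125.

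The spread between pool pairs could be set against repeat hybridisation, since pairs 1 and 2 were each run on both slides. For the brightest Fmo5 probe the 2 arrays of pair 1 read -0.302 and -0.298 and those of pair 2 read -0.084 and -0.038, while pair 3, on a single array, read 0.26. Fmo2 likewise read 0.22 and 0.17 in pair 1 and 0.15 and 0.15 in pair 2. Fmo1 moved more, reading 0.22 on slide 1 and 0.06 on slide 2 in pair 1, and 0.38 and 0.20 in pair 2. Fmo4 read 0.01 and 0.13 in pair 1 and -0.10 and -0.12 in pair 2. Over all kept probes the median absolute difference between repeat arrays was 0.077 in pair 1 and 0.074 in pair 2.

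**Figure D3:**
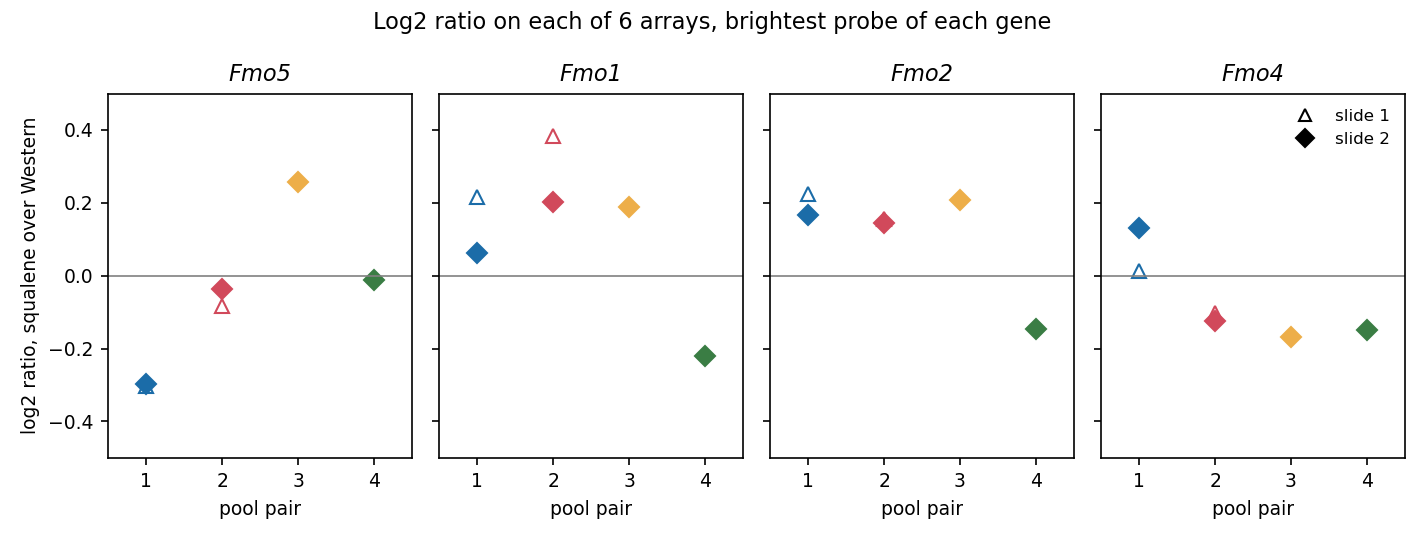
Log2 ratio of squalene over Western on each array for the brightest probe of each gene, by pool pair. Open triangles are slide 1 and filled diamonds slide 2. Repeat arrays of pairs 1 and 2 lie close together for Fmo5 and Fmo2 and further apart for Fmo1.

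Within slide 1, which held pairs 1 and 2, the mean log2 ratio was 0.30 for Fmo1, 0.19 for Fmo2, -0.04 for Fmo4 and -0.19 for Fmo5. Within slide 2, which held all 4 pairs, it was 0.06 for Fmo1, 0.09 for Fmo2, -0.08 for Fmo4 and -0.02 for Fmo5. Slide 2 holds the same pools of pairs 1 and 2 again, so the slides are not independent of each other. By dye, the mean log2 ratio of Fmo1 was -0.04 in the pairs with squalene in Cy5 and 0.24 in those with squalene in Cy3. With squalene in Cy5 and in Cy3, in that order, the means were -0.16 and 0.10 for Fmo5, 0.02 and 0.18 for Fmo2, and -0.04 and -0.14 for Fmo4. Each orientation holds 2 pool pairs of its own, so dye and pool cannot be told apart in the difference between orientations.

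In levels not centred by dye, the 4 genes shared a wider spread in the squalene pools. For Fmo5 the squalene pools had an SD of 0.23 in log2 intensity and the Western pools one of 0.07, a ratio of 3.26. For Fmo2 the SD was 0.22 with squalene and 0.09 in Western, for Fmo1 0.17 with squalene and 0.09 in Western, and for Fmo4 0.11 with squalene and 0.06 in Western. The SD was the larger in squalene pools for 56.2% of all features, with a median SD ratio of 1.10. The pools of each diet were read in both dyes, so dye and pool cannot be told apart in these SDs. The genes were read in the same pools, so they are not independent of each other, and the difference in spread was not tested.

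Pair 4 was the pair in which Fmo1 and Fmo2 both turned below 0. In levels not centred by dye, its squalene pool was the lowest of the 8 pools for Fmo1, Fmo2 and Fmo4, and for 11.1% of all features. A ratio above 0 in pairs 1 to 3 and below 0 in pair 4, as in Fmo1 and Fmo2, occurred in 5.12% of all features. In pair 4 the listed hepatocyte markers averaged 0.24 and the Kupffer cell and macrophage markers -0.66 on the log2 ratio scale. The other measured marker lists averaged between -0.03 and 0.15 in that pair. Kupffer cell and macrophage markers averaged -0.60 in pair 3 as well. Hepatocyte markers averaged 0.20 in the pairs with squalene in Cy5, which include pair 4, and -0.06 in those with squalene in Cy3. Dye and pool content cannot be told apart there. The part of cell content in these ratios was not tested. Without pair 4 the fitted value was 0.19 for both Fmo1 and Fmo2, and without pair 1 it was 0.01 for Fmo1 and 0.02 for Fmo2. For Fmo4 the fitted value was -0.03 without pair 4 and -0.14 without pair 1. Fmo5 did not share the pattern of Fmo1 and Fmo2: its ratio in pair 4 was -0.012.

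Set against each other within arrays, the log2 ratios of the genes had signed mean differences below 0.20 in size. Differences of opposite sign cancel in these means, as for Fmo4 over Fmo5 at 0.37, -0.052, -0.43 and -0.14 in pairs 1 to 4. Among the 6 gene pairs, the difference had 1 sign in all 4 pool pairs only for Fmo2 over Fmo4, at 0.12, 0.26, 0.38 and 0.0011. Their mean difference was 0.19 ± 0.16 (SD, n = 4), and it was not tested. Fmo1 and Fmo2 differed least, by -0.0010 ± 0.098 (SD, n = 4).

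Genes that serve or resemble these enzymes also showed no call, by limma with Benjamini-Hochberg adjustment over all features. Of 24 other flavoprotein oxidoreductases, 22 were measured, 12 above and 10 below 0, with a median log2 ratio of 0.02; 0 passed an adjusted or an unadjusted p of 0.05. The smallest unadjusted p values belonged to the glycolate oxidase Hao1 at 0.15 ± 0.34, the isovaleryl-CoA dehydrogenase Ivd at 0.08 ± 0.10 and the sarcosine dehydrogenase Sardh at -0.07 ± 0.20 (SD, n = 4). Sqle, the flavoprotein that oxygenates squalene itself, was at 0.24 ± 0.84 (SD, n = 4). Its log2 ratios of 0.72, 1.13, -0.13 and -0.74 in pairs 1 to 4 had no common sign; Sqle was named outside the rule for named genes, after its values were seen.

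The 10 genes of NADPH supply had a median log2 ratio of -0.05, 4 above and 6 below 0. Idh1, the cytosolic isocitrate dehydrogenase, was at 0.07 ± 0.42, and the pentose phosphate enzymes Taldo1 and Tkt were at -0.05 ± 0.26 and -0.08 ± 0.26 (SD, n = 4). This list averaged 0.19 in pair 2 and -0.30 in pair 4. Of 5 FAD supply genes 4 were measured, with a median of 0.03. The FAD synthase Flad1 was at 0.05 ± 0.07, the mitochondrial folate and FAD carrier Slc25a32 at 0.13 ± 0.53, and the riboflavin transporter Slc52a2 at -0.12 ± 0.09 with ratios below 0 in every pair (SD, n = 4). No member of either list passed an adjusted or an unadjusted p of 0.05 in limma (0 each).

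Electron transfer partners in the endoplasmic reticulum, which serve cytochrome P450 enzymes and not the flavin monooxygenases, had a median of 0.02 over 7 genes. The haem-binding membrane proteins Pgrmc1 and Pgrmc2 were at 0.13 ± 0.07 and -0.19 ± 0.24, and the reductase Cyb5r1 was at -0.12 ± 0.23 (SD, n = 4). Pgrmc1 was above 0 in all 4 pairs. Sulfur amino acid and taurine genes had a median of -0.02 over 14 genes, 3 above and 11 below 0. Ahcy, which hydrolyses S-adenosylhomocysteine, was at 0.15 ± 0.26, the sulfide-oxidising Ethe1 at -0.10 ± 0.11 and the taurine transporter Slc6a6 at -0.16 ± 0.36 (SD, n = 4). Choline and methylamine genes had a median of -0.05 over 10 genes, 2 above and 8 below 0. The choline transporter Slc44a1 was at -0.13 ± 0.11, below 0 in every pair, and the choline kinase Chka at -0.29 ± 0.88 (SD, n = 4). In these 3 lists 0 genes passed an adjusted or an unadjusted p of 0.05 in limma.

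**Figure D4:**
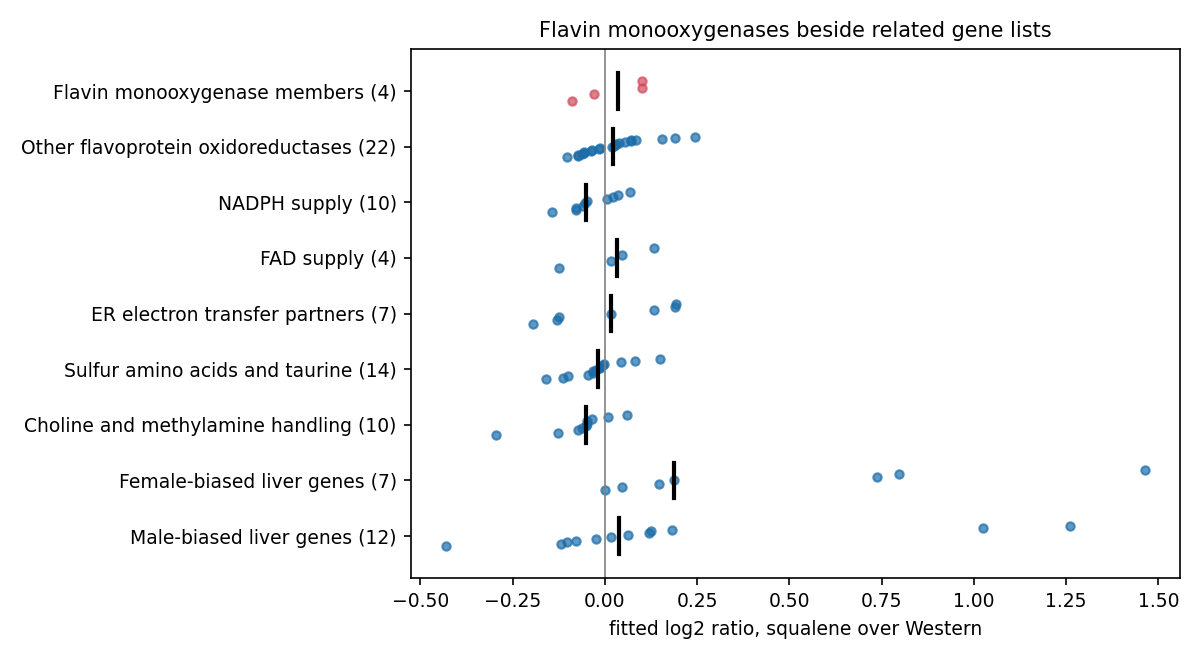
Fitted log2 ratio of squalene over Western for each measured gene (points) of the flavin monooxygenases and 8 related lists, with the list median as a black bar and the number of measured genes in brackets. The flavin monooxygenases lie between -0.09 and 0.10, while the female-biased list reaches 1.46 and the male-biased list 1.26.

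Among the 8 related lists, only the sex-biased ones held genes at an unadjusted p under 0.05. Of 14 female-biased genes 7 were measured, with a median log2 ratio of 0.19, and 3 reached that level, all higher: the cytochrome P450 genes Cyp2b9 at 1.46 ± 0.48, Cyp3a16 at 0.80 ± 0.51 and Cyp3a41b at 0.74 ± 0.28 (SD, n = 4). Of 13 male-biased genes 12 were measured, with a median of 0.04, and 1 reached it, the transcriptional repressor Bcl6 at 1.26 ± 1.12. Moxd1, a monooxygenase-like protein, was at 1.03 ± 1.51 and the glucuronosyltransferase Ugt2b1 at 0.18 ± 0.43 (SD, n = 4). Over all features, 2.47% reached that unadjusted p in limma. The lists were chosen with earlier results of these data known, so their counts beside this share are a description and not a test. At a Benjamini-Hochberg adjusted p of 0.05 limma called 0 of 7 and 0 of 12. Cyp2b9 had a low mean log2 level of 6.60 in Western pools, against 8.06 in squalene pools. Moxd1 had 6.84 in Western pools and 7.86 in squalene pools. The filter asks for signal in 1 diet only. The Cyp2b and Cyp3a families are known for targets of the receptors CAR and PXR, and the part of these receptors here was not tested. The values for Fmo1 and Fmo2 lay far below those of the 3 P450 genes, and the difference between them was not tested.

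Markers of other cells differed between pairs, and for fibroblasts and red cells the split follows the dye orientation: pairs 2 and 3 had squalene in Cy3 and pairs 1 and 4 in Cy5, so dye and pool content cannot be told apart there. Stellate cell and fibroblast markers averaged -0.64 and -0.48 in pairs 2 and 3, against 0.16 and 0.02 in pairs 1 and 4, with 1 of 7 above 0 overall and 3 lower at an unadjusted p under 0.05. Red cell markers averaged -0.55 and -1.32 in pairs 2 and 3, against 0.04 and 0.15 in pairs 1 and 4, with 0 of 5 above 0 and 3 lower at an unadjusted p under 0.05; limma called 0 genes of either list after Benjamini-Hochberg adjustment. Those low p values depend on the dye term: without it 0 of 7 fibroblast and 0 of 5 red cell genes were lower at an unadjusted p under 0.05. With the dye term, 2.47% of all features reached that p in limma. Kupffer cell and macrophage markers averaged 0.18 and 0.49 in pairs 1 and 2, against -0.60 and -0.66 in pairs 3 and 4, with 0 of 6 above 0 on average. Endothelial markers had a median of -0.05 over 6 genes, cholangiocyte markers -0.07 over 5 and hepatocyte markers 0.06 over 8. The next ranges are the log2 of a list's summed intensity, in levels not centred by dye. The hepatocyte list ran from 19.55 to 19.94 in squalene pools and from 19.49 to 19.88 in Western pools. The red cell list ran from 16.24 to 17.34 in squalene pools and from 16.72 to 17.95 in Western pools, and the macrophage list from 14.94 to 16.01 in squalene pools and from 14.80 to 15.76 in Western pools. The fibroblast list ran from 14.49 to 15.04 in squalene pools and from 14.87 to 15.06 in Western pools. The part of these cells in the flavin monooxygenase values was not tested.

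The features most like each gene across the 8 pools, with each dye centred on its own mean, were sought among 7290 with a symbol and an SD of at least 0.1. For Fmo1 these were Acacb (r = 0.954), the acetyl-CoA carboxylase of the mitochondrial membrane, Myo10 (r = 0.949) and Vpreb3 (r = 0.941). For Fmo2 they were Senp3 (r = 0.984), the polyamine oxidase Paox (r = 0.970), which is itself a flavoprotein, and the retinoic acid hydroxylase Cyp26b1 (r = 0.967). For Fmo4 they were Taf6l (r = 0.974), Dok1 (r = 0.964) and Jak3 (r = 0.955), and for Fmo5 Wnt5b (r = 0.975), Trmt2b (r = 0.975) and Gmnn (r = 0.962). These are Pearson correlations over 8 pools that share arrays. They describe these pools, and the best of 7290 features will be high over so few values. Not centred by dye, the log2 ratios of Paox and Cyp26b1 had the opposite sign to those of Fmo2 in pairs 2, 3 and 4. The log2 ratios of Senp3 had the same sign as those of Fmo2 in each pair.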

How the data were processed

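RNA of 8 liver pools was read on 6 two-colour Agilent arrays. Per the file headers, Agilent Feature Extraction 10.7.3.1 gave the deposited intensity of each spot and its background as pixel medians, a processed intensity, log10 ratios and quality marks. A table of log10 ratios was deposited as well, made by the authors in a way not given in the sources used here. Both pair 1 columns looked like a score through 2 impossibly large cells in each, but were log10 ratios calculated by the authors, as deposited. Those cells were dropped. The table matched log10 of squalene over Western median signals within 0.001 for over 99.9% of spots, so its scale and direction were settled. It is uncentred. Its column medians were 0.254 and 0.27 for pair 1, -0.217 and -0.257 for pair 2, -0.27 for pair 3 and 0.259 for pair 4.

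Here, normexp (offset 50) was applied to median signals, then loess within arrays, in limma 3.58.1 (R 4.3.3), controls at weight 0 and outlier spots left out. Repeat arrays were averaged, so the pool pair was the replicate (n = 4). A probe was kept where most of its spots were well above background in at least 3 of 4 pairs for at least 1 diet (26854 of 55681 probes), and the brightest probe stood for a gene. Symbols came from RefSeq GRCm38.p6, which named 26762 probes; the files name an older build. limma's linear model had the squalene effect and a dye term, leaving 2 residual and 3.04 prior degrees of freedom. P values were adjusted by Benjamini-Hochberg over 20658 features. SE values come from this fit and SD values from the 4 pairs. Other probes of a gene were read from the same model over all kept probes. Pool levels are log2 intensities after Aquantile. Precision is limited by the number of arrays.

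Members and lists were chosen with earlier results of these data known. Named genes were all probes of the 4 members, the 3 genes of each other list with the smallest unadjusted p, and the 3 features most like each member. The fit was tested on simulated data. Other background corrections, normalisations, filters, dye and slide terms, probe summaries and left-out pairs were tried as alternatives.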

Additional observations from a re-analysis of the deposited data

Results flagged for a closer look

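A sample far from the other 3 was looked for in 74 groups of 4 values, and 4 were found; chance gives about 1 in 20 groups. Fmo2 read -0.15 on the log2 ratio scale in pair 4, away from its values of 0.20, 0.15 and 0.21 in pairs 1 to 3. Acacb, the feature most like Fmo1, read -0.72 in pair 4, away from 0.51, 0.72 and 0.51. The choline kinase Chka read -1.61 in pair 3, away from 0.16, 0.13 and 0.14. Clec4f, a Kupffer cell marker, read 0.71 in pair 2, away from -0.54, -0.52 and -0.40.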

How the results depend on the processing

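Every fit used the ratios within pool pairs and is thus paired; a fit that ignores the pairing was not run. Under 16 other settings, Fmo1 ran from 0.01 to 0.19, Fmo2 from 0.02 to 0.19 and Fmo4 from -0.23 to -0.03, each with 1 direction throughout. Changes to the filter, the dye term, the variance model or the set of features left these ratios unchanged by construction. The mean over probes could not move Fmo2 and Fmo4, which have 1 probe each. Fmo5 ran from -0.11 to 0.05 and turned above 0 in 3 settings: 0.049 as the mean over probes, 0.043 without pair 1 and 0.050 without pair 2; in the other settings it was below 0. The smallest adjusted p of a member over these settings was 0.883, for Fmo4 (limma, Benjamini-Hochberg). Of all features, 0 were called in the fit reported, 2 with median centring, 8 with the authors' deposited table and 3 with a slide term and the pair as a random block; none of the 4 genes was among them. Features at an unadjusted p under 0.05 were 511 in the fit reported, 201 with median centring and 182 with the deposited table. They were 254 without the dye term and 6 with a variance trend. Without a filter they were 936, but of 37146 features tested and not of 20658. When 1 pair was left out they ran from 363 to 1303, with 0 called. With 1 pair left out, 1 orientation holds a single pair, assumed to vary like the others. Apart from the larger number of features without a filter, the cause of these changes was not tested. Signal over background was lowest for Fmo4, at 1.92 to 3.80.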
